A study of Arabidopsis thaliana with 34 samples.

Results

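The 10 genes described here belong to jasmonate signalling and were followed through seedlings of Arabidopsis thaliana F1 hybrids and their inbred parents: the repressor genes JAZ1 (AT1G19180), JAZ2 (AT1G74950), JAZ3 (AT3G17860), JAZ5 (AT1G17380), JAZ6 (AT1G72450), JAZ8 (AT1G30135), JAZ9 (AT1G70700) and JAZ10 (AT5G13220), the transcription factor gene MYC2 (AT1G32640) and the output gene VSP2 (AT5G24770). They were picked out by locus, with no cut on a measured value but with earlier results of these data known, and all 10 were found among the 33321 loci of the count table. The hybrids were C24xLer and LerxC24, C24xCol and ColxC24, and ColxLer and LerxCol, the 2 directions of cross between each pair of accessions, and the inbreds were the accessions C24, Ler and Col. Which accession of a cross was the mother is not stated in the labels, and they name no transgene and no treatment. Each library was made from the aerial tissue of a pool of 5 to 15 seedlings that had grown on agar for 15 days. Because a library is a pool of whole aerial parts, fewer cells of a type and less RNA per cell cannot be told apart, and p-values measure the spread between pools.

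Jasmonates are lipid hormones that plants make after wounding, insect attack and touch. JAZ proteins bind MYC2 and hold its targets silent through the adaptor NINJA and the corepressor TPL. The active hormone, a conjugate of jasmonic acid with isoleucine, joins JAZ proteins to the receptor COI1, the JAZ proteins are degraded, and MYC2 switches on its targets. Many JAZ genes are themselves MYC2 targets, which makes their transcripts a readout of the pathway and a brake on it. JAZ8 lacks the usual degradation motif and resists the hormone, and JAZ10 makes splice forms that resist it. MYC2 and its relatives bind the G-box CACGTG and the related T/G-box AACGTG. VSP2 encodes a vegetative storage protein of leaves with acid phosphatase activity and is a classical jasmonate marker.

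The bases just upstream of the genes were read from the RefSeq genome and annotation TAIR10.1, because MYC2 itself and several JAZ genes moved together in the libraries described below. In the 300 bases before the annotated start, the G-box was found in 3 of the 10 genes (JAZ2, JAZ3 and JAZ8), against 7.09% of 27443 genes of the annotation. The T/G-box, searched on both strands, was found in 4 of 10 (JAZ3, JAZ5, JAZ6 and MYC2), against 8.71% of genes, and either of the motifs in 6 of 10, against 15% of genes. A letter match is a description and not a binding site, and the windows of JAZ1, JAZ9, JAZ10 and VSP2 held no match within these bases. Printed here are the window of JAZ3, which held the most matches, and the windows of JAZ5, JAZ8 and MYC2, which had a match and were high in the same libraries. Each is given 5′ to 3′ on the strand of its gene, with the matches in capitals (CACGTT is AACGTG on the other strand). The windows are chr3:6119407-6119706 on the plus strand, chr1:5957512-5957811 on the minus strand, chr1:10596052-10596351 on the plus strand and chr1:11801408-11801707 on the minus strand of TAIR10.1.
JAZ3: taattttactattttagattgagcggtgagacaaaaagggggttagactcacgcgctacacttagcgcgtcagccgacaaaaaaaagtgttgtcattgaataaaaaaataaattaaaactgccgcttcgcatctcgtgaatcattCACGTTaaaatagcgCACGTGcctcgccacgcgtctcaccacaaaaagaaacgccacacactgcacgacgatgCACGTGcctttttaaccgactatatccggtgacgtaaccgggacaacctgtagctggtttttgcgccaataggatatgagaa
JAZ5: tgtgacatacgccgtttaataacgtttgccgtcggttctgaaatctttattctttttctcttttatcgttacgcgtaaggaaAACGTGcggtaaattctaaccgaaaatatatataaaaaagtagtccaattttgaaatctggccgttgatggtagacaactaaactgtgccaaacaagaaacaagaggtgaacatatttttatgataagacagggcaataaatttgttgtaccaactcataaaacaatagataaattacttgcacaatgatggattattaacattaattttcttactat
JAZ8: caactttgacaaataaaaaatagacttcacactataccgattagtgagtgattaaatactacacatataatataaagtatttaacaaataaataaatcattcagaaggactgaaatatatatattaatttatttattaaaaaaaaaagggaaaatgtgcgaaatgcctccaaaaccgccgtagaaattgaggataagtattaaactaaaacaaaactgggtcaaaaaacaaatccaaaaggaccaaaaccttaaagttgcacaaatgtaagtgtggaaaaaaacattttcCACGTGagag
MYC2: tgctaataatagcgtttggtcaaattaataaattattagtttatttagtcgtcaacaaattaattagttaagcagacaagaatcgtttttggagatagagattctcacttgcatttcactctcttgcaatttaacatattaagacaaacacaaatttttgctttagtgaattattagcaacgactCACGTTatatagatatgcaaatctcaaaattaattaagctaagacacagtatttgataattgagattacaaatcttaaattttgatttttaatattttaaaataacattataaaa
The match in JAZ8 lay closest to the gene, with its first base 10 bases upstream of the start. The first base of the matches lay 82, 140 and 155 bases upstream in JAZ3, 115 bases in MYC2 and 218 bases in JAZ5.

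The series holds 34 libraries, of which 28 are used here. The 28 were 4 each of C24xLer and LerxC24, 6 of C24, 4 of Ler and 2 each of the other 5 genotypes, and they held 36324848 to 88686247 counts. Left out were the 4 libraries lettered C, with 13198638 to 20435372 counts and 11393 to 11692 loci at 0, where the 28 had 2072 to 2742. Ler D and Ler E were also left out, by name. In them 18 genes, picked for being near 0 in Ler A and B but not in C24 and Col, stood high. Their median was 47.8% in Ler D and 30.8% in Ler E of the level in C24 and Col. It was at most 0.779% in the remaining Ler libraries. Of these, Ler C, F and G (0%, 0.608% and 0.779%) were not used to pick the genes. Every genotype had libraries lettered A and B, and only C24, Ler and their hybrids had others. The labels do not say what a letter stands for. All 5 leaf marker genes were detected in every library, with a summed level of 31110 to 43070 CPM in letters A and B and 15890 to 27970 CPM in the others. Root markers summed to at most 10.18 CPM and flower markers to at most 13.77 CPM.

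Levels are given as CPM, the usual depth-scaled count, with library totals scaled by TMM over the 28 libraries, and levels are compared between genes per kilobase of annotated exon. VSP2 was the most abundant of the 10, with a median of 156 CPM per kilobase over the 28 libraries. JAZ6 (48.2), JAZ9 (38.6) and JAZ2 (26.4 CPM per kilobase) were the most abundant repressor genes. MYC2 followed with 12.4, JAZ3 with 9.45 and JAZ1 with 8.11 CPM per kilobase. JAZ5 had 3.35, JAZ10 2.69 and JAZ8 0.509 CPM per kilobase, and JAZ8 was covered by 13 to 195 counts per library. JAZ10 overlaps the locus AT5G02045 and MYC2 overlaps AT1G32630 on the other strand, and since no source used here states whether counting used strand, reads of these neighbours could be included. Of the 1418 stretches of 50 bases in the VSP2 exons, 5 occur elsewhere, in its neighbour VSP1, so the copy could move few VSP2 reads.

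The same 3 libraries, each of another genotype, carried the highest levels of JAZ1, JAZ5, JAZ8, JAZ10 and MYC2 at once. For each of these 5 genes the 3 highest of the 28 libraries were ColxC24 A, C24 A and LerxC24 U1. The letters of the columns U1 and U2 match no title of LerxC24, so these 2 libraries are used by genotype alone. JAZ1, a MYC2-binding repressor that also binds DELLA growth repressors, had 114 CPM in ColxC24 A, 44.5 CPM in C24 A and 29.4 CPM in LerxC24 U1, and 5.14 to 24.8 CPM in the other libraries. MYC2 had 266 CPM in ColxC24 A, 115 CPM in LerxC24 U1 and 105 CPM in C24 A. Its next highest levels were 79.2 and 78.7 CPM, in Ler G and Ler F.

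JAZ5, a close relative of JAZ6, had 27.9, 20.4 and 19.1 CPM in ColxC24 A, C24 A and LerxC24 U1, against at most 9.46 CPM elsewhere. JAZ8 had 2.47, 2.09 and 2.75 CPM in ColxC24 A, C24 A and LerxC24 U1, and its next highest library was C24 B with 1.099 CPM. JAZ10 had 12.9, 13.5 and 11.8 CPM in the same order, followed by C24 B with 10.8 CPM. Relative to the median of the other 27 libraries, JAZ1 stood at 7.93-fold in ColxC24 A, 3.09-fold in C24 A and 2.04-fold in LerxC24 U1. The same ratio for JAZ8 was 6.74-fold in ColxC24 A, 5.69-fold in C24 A and 7.49-fold in LerxC24 U1. For MYC2 it was 6.66-fold, 2.63-fold and 2.88-fold in these 3 libraries. These libraries were picked by the values shown, so the folds are descriptions with no test.

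**Figure D1:**
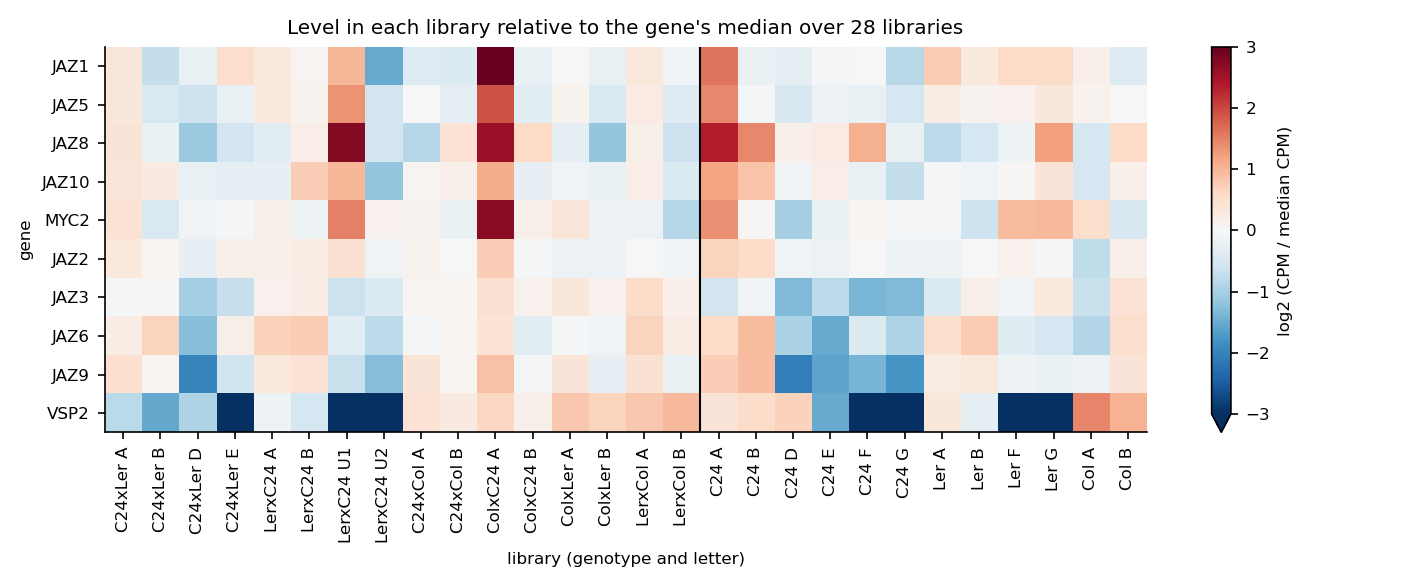
Level of each of the 10 genes (rows) in each of the 28 libraries (columns; hybrids left of the black line, inbreds right), as log2 of CPM over the gene's median; the colour scale ends at 3 on either side. ColxC24 A, C24 A and LerxC24 U1 stand out in the upper 5 rows, and the dark blue cells of the lowest row are VSP2 in libraries lettered other than A and B.

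The other repressor genes did not rank alike in these libraries. JAZ2, which acts in guard cells of stomata, had 60.4 CPM in ColxC24 A, 58.2 CPM in C24 A and 49.8 CPM in LerxC24 U1, ranks 1, 2 and 4. JAZ3, the gene of the jai3 mutant, had 35.5, 17.6 and 16.7 CPM in the same 3 libraries, ranks 2, 20 and 21. JAZ6 ranked 10, 7 and 18 there and JAZ9 ranked 2, 3 and 22. VSP2 had 363 CPM in ColxC24 A, 308 CPM in C24 A and 5.27 CPM in LerxC24 U1, ranks 8, 11 and 27. VSP2 was thus not highest where MYC2 was, and stood at 1.71-fold, 1.45-fold and 0.0201-fold its median over the other libraries. LerxC24 U2, with 44.1 CPM of MYC2, had still less VSP2, 2.94 CPM.

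**Figure D2:**
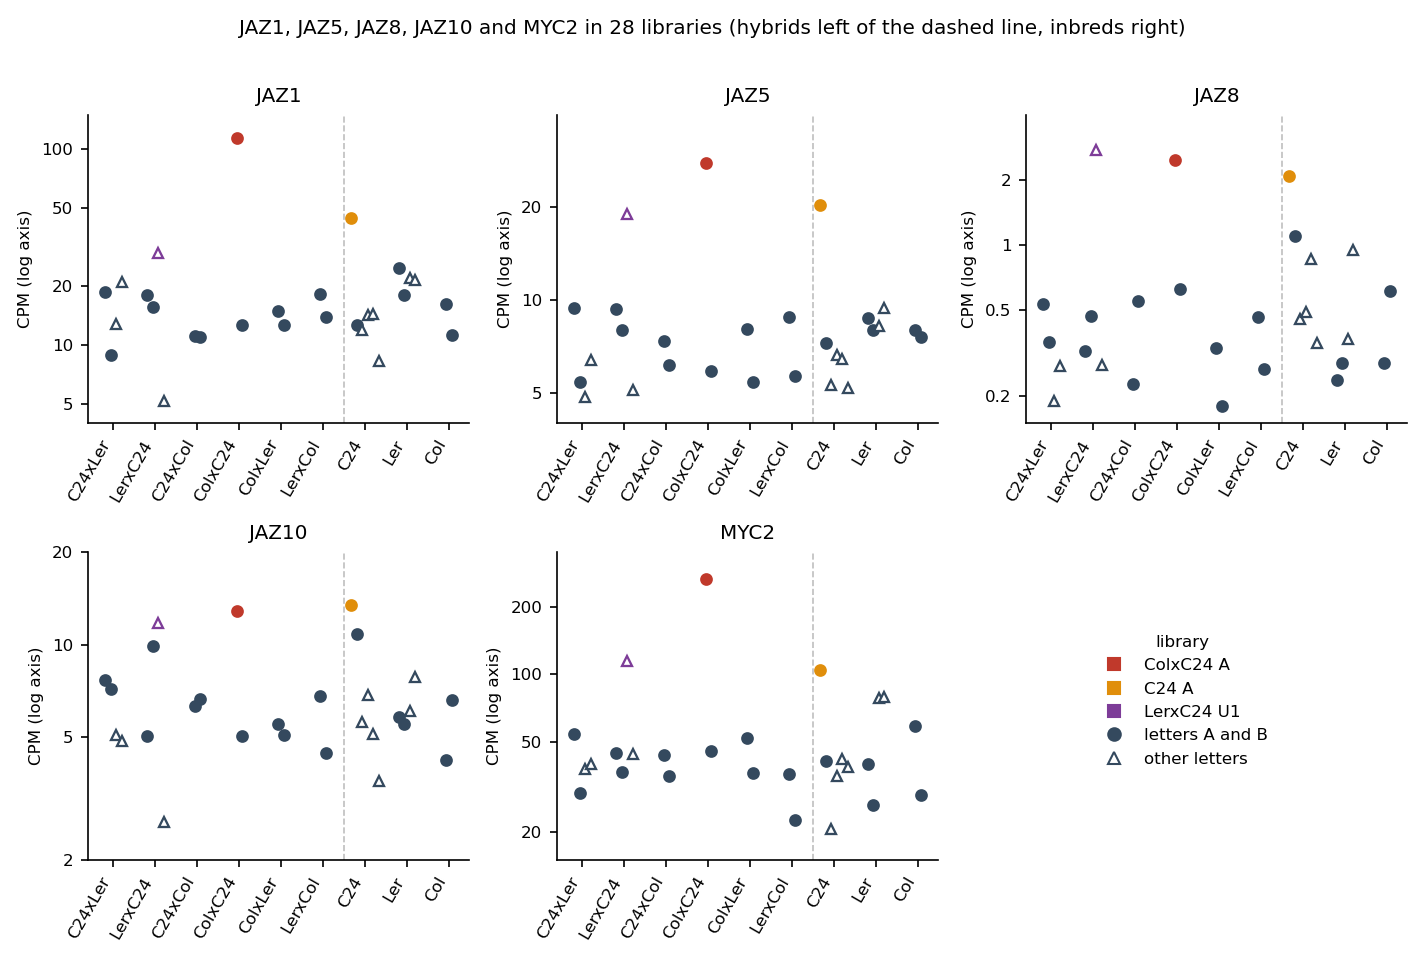
CPM (log axis) of JAZ1, JAZ5, JAZ8, JAZ10 and MYC2 in every library by genotype; filled circles are letters A and B, open triangles other letters, and colours mark the 3 named libraries. Each coloured point lies above its own genotype's other libraries, with JAZ1 at 114 CPM in ColxC24 A and 12.7 CPM in ColxC24 B.

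Spread between libraries of a genotype was wide for most of the 10 genes. The within-genotype SD of log2 CPM was 0.83 for JAZ1, larger than for 96.5% of 30106 genes, 0.76 for MYC2 and 0.97 for JAZ8. It was 0.65 for JAZ5, 0.61 for JAZ10, 0.76 for JAZ6, 0.91 for JAZ9 and 2.15 for VSP2, where the median gene had 0.28. JAZ2 with 0.31 and JAZ3 with 0.44 were the steadiest. Within letters A and B alone the SD of VSP2 was 0.29 and that of JAZ9 0.36, against a median of 0.18, whereas JAZ1 kept 0.92 and MYC2 0.79.

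Across the 28 libraries the log2 levels of JAZ1 and JAZ5 correlated with r = 0.89, those of JAZ5 and MYC2 with r = 0.84 and those of JAZ1 and MYC2 with r = 0.77. Without the 3 high libraries (n = 25) these were 0.72, 0.49 and 0.33, and r between JAZ1 and JAZ8 was 0.07 instead of 0.62. JAZ6 and JAZ9 correlated with r = 0.84 with and without these libraries, and JAZ3 and JAZ9 with 0.80 and 0.85. Within the 18 libraries lettered A and B, however, r was 0.61 for JAZ6 and JAZ9 and 0.13 for JAZ3 and JAZ9. VSP2 and MYC2 had r = -0.18 over the 28 libraries and -0.35 without the 3, but 0.15 within the 18 libraries lettered A and B. These values describe libraries that share genotypes, letters and scaling factors.

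The lists of other pathway genes were read in the same 3 libraries. Of all genes, 3.01% in ColxC24 A, 3.25% in C24 A and 4.40% in LerxC24 U1 were at least 2-fold above their median in the other libraries. Of the 10 genes it was 5 in each, JAZ1, JAZ5, JAZ8, JAZ10 and MYC2. The libraries were picked by the levels of these genes, so that count follows from the choice and cannot be set against these shares. Of 9 genes of the rapid wound and touch response, 8 in ColxC24 A, 3 in C24 A and 5 in LerxC24 U1 were at least 2-fold above their median in the other libraries. In ColxC24 A the zinc finger gene ZAT10 was at 125 CPM (21.5-fold), ZAT12 at 63.9 CPM (19.7-fold), the transcription factor gene WRKY40 at 98.5 CPM (14.6-fold) and the calmodulin-like gene CML38 at 47.2 CPM (11.1-fold). LerxC24 U1 had WRKY40 at 9.04-fold, WRKY33 at 7.90-fold and the touch gene TCH3 at 6.29-fold. In C24 A the list reached 2.61-fold at most, for ZAT10. The summed level of this list was 1509 CPM in ColxC24 A and 1217 CPM in LerxC24 U1, the 2 highest of all, but 437 CPM in C24 A, and 850 CPM in Col B, where MYC2 had 29.1 CPM. The part of this response in the JAZ and MYC2 levels was not tested.

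Jasmonate synthesis genes at least 2-fold above their median numbered 6 of 14 in ColxC24 A, 7 in C24 A and 5 in LerxC24 U1. The lipoxygenase genes LOX3 and LOX4 were at 3.43-fold and 2.96-fold in ColxC24 A, 2.98-fold and 3.33-fold in C24 A, and 4.66-fold and 6.71-fold in LerxC24 U1. OPR3, the reductase of the peroxisomal step, was at 2.66-fold, 2.46-fold and 2.48-fold in these libraries. LOX2, the plastid lipoxygenase most abundant in leaves, was at 1.08-fold in ColxC24 A, 2.14-fold in C24 A and 0.219-fold in LerxC24 U1. Of the 4 genes of receptor and corepressors, none reached 2-fold in any of the 3. Of the 15 outputs, 2 in ColxC24 A, 4 in C24 A and 4 in LerxC24 U1 were at least 2-fold above their median. Outputs at least 2-fold below it numbered 0, 1 and 6, and the median ratios of this list were 1.01, 1.37 and 0.861. Catabolism genes at least 2-fold above numbered 1 of 10 in ColxC24 A, 0 in C24 A and 1 in LerxC24 U1. Of the 5 other JAZ genes it was 1 in each library, and of the 6 other bHLH genes 2, 1 and 0. Leaf markers had a median ratio of 1.21 in ColxC24 A, 1.04 in C24 A and 0.245 in LerxC24 U1.

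**Figure D3:**
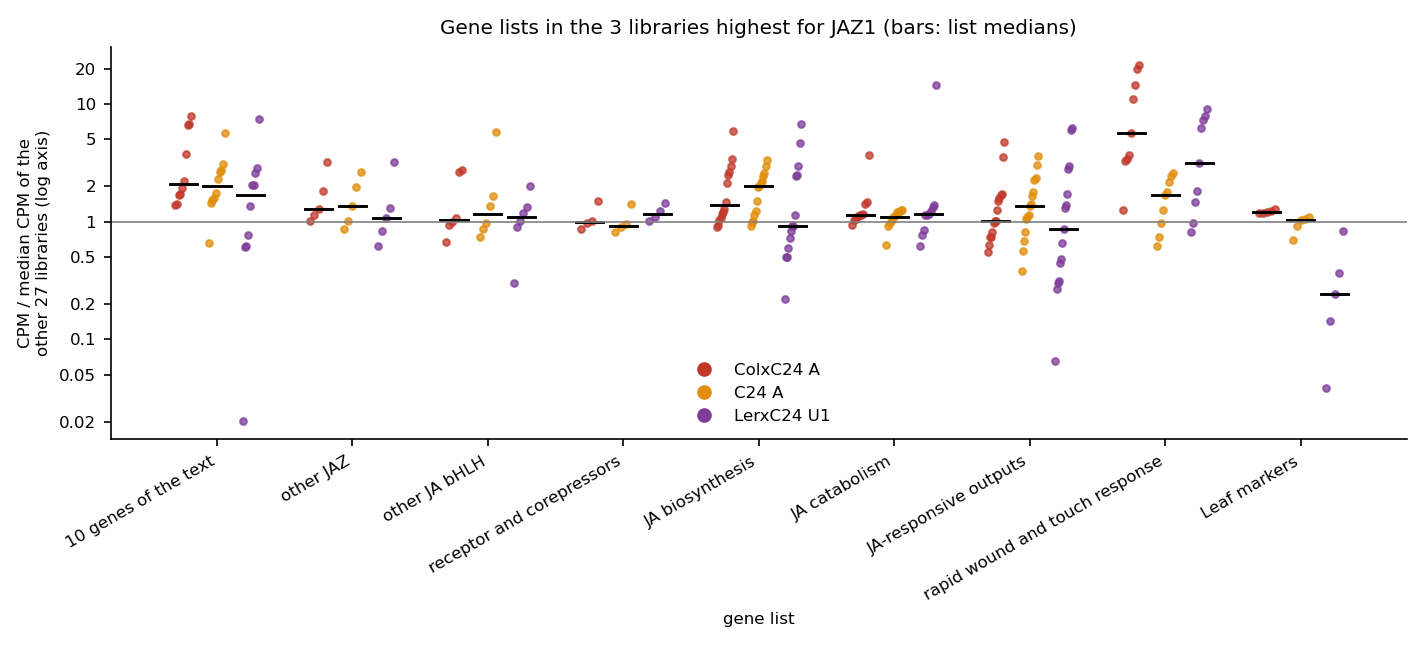
Ratio of CPM in ColxC24 A, C24 A and LerxC24 U1 to the median of the other 27 libraries (log axis) for each gene of 9 lists; points are genes and black bars list medians. The rapid wound and touch list has medians of 5.64 in ColxC24 A, 1.67 in C24 A and 3.18 in LerxC24 U1, and the leaf markers are low in LerxC24 U1 only among these 3.

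The direction of the cross was asked by setting reciprocal hybrids against each other, with edgeR's quasi-likelihood test and Benjamini-Hochberg adjustment over all genes, as in all tests below. None of the 10 genes passed an adjusted p of 0.05 in C24xCol against ColxC24, where 0% of 29777 genes passed (715 genes and 3 of the 10 at an unadjusted p under 0.05; DESeq2 called 19 genes and none of the 10). The 3 were JAZ1, JAZ8 and MYC2. JAZ1 had 11.1 and 11.0 CPM in C24xCol A and B, against 114 and 12.7 CPM in ColxC24 A and B, a log2 change of -2.53 ± 0.83 (SE, adjusted p = 1). The groups do not overlap, which held for 4 of the 10 genes (JAZ1, JAZ3, JAZ8 and MYC2) and for 25.1% of 30106 genes. The size for JAZ1 rests on ColxC24 A: without ColxC24 A the change was -0.205. Without ColxC24 B it was -3.38, which sets the C24xCol pools against ColxC24 A alone. In ColxLer against LerxCol 0 of the 10 and 0% of genes passed (1059 genes and none of the 10 at an unadjusted p under 0.05; DESeq2 called 4 genes, none of the 10). In C24xLer against LerxC24 0 of the 10 passed, against 0.00339% of 29528 genes, which is 1 gene (1097 genes and none of the 10 at an unadjusted p under 0.05; DESeq2 also called 1 gene, none of the 10).

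Against the mid-parent value, midway between the parents' log2 levels, none of the 10 genes was called in any family. For C24/Ler hybrids 0 of 10 passed, against 0.769% of genes (none of the 10 and 2074 genes at an unadjusted p under 0.05). For C24/Col hybrids 0 of 10 passed, against 1.24% of genes (1 of the 10 and 3702 genes unadjusted), and for Col/Ler hybrids 0 of 10, against 1.12% (none of the 10 and 2971 genes unadjusted). DESeq2 called none of the 10 in these 3 comparisons and 446, 786 and 634 genes. MYC2 changed by -0.06 ± 0.32 in C24/Ler, 0.47 ± 0.49 in C24/Col and -0.08 ± 0.49 in Col/Ler hybrids on the log2 scale (SE). JAZ2 had the narrowest errors, with 0.07 ± 0.13, 0.04 ± 0.19 and 0.04 ± 0.19. JAZ3 had positive values in all 3 families, 0.16 ± 0.20, 0.35 ± 0.22 and 0.35 ± 0.22, none of which passed. In C24/Ler hybrids, letters A and B alone and the other letters alone also gave 0 calls. The SE reached 0.56 for JAZ1, 0.44 for JAZ5, 0.56 for JAZ8, 0.49 for MYC2 and 0.91 for VSP2. The flower marker AP3 was lower in C24/Ler hybrids (-0.86 ± 0.18, adjusted p = 0.0236), and no leaf or root marker was called in these 3 comparisons.

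**Figure D4:**
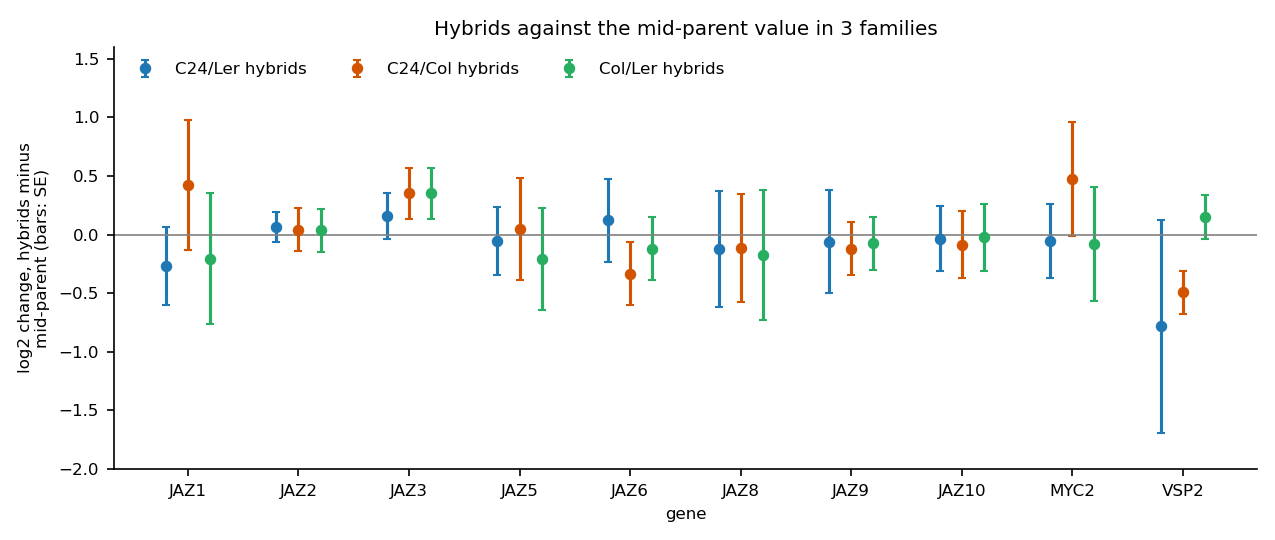
Log2 change of each gene in the hybrids against the mid-parent value in the C24/Ler, C24/Col and Col/Ler families; points are estimates of edgeR's fit and bars their SE. Of the 30 values 26 lie within 1 SE of 0, and VSP2 spreads from -0.78 in C24/Ler to 0.15 in Col/Ler hybrids.

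VSP2, the jasmonate marker, was the only one of the 10 genes with an unadjusted p under 0.05 in each difference between families given below, none of which passed after adjustment in the edgeR fit without the letter. In letters A and B it had 135 and 81.1 CPM in C24xLer and 213 and 164 CPM in LerxC24, against 308 and 346 CPM in C24 and 296 and 195 CPM in Ler. All C24xLer and LerxC24 libraries of these letters lay below all C24 libraries, and LerxC24 A overlapped with Ler. In ColxLer it had 414 and 376 CPM and in LerxCol 412 and 461 CPM, between Ler and Col with 656 and 490 CPM. In C24xCol it had 320 and 283 CPM and in ColxC24 363 and 261 CPM, overlapping with C24 and below both Col libraries. The mid-parent change was -0.78 ± 0.91 (adjusted p = 0.981) in C24/Ler hybrids over all their letters. Within letters A and B it was -0.995 (adjusted p = 0.205), and within the other letters -1.44 (adjusted p = 0.928). It was -0.49 ± 0.19 (adjusted p = 0.303) in C24/Col and 0.15 ± 0.19 (adjusted p = 0.834) in Col/Ler hybrids.

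The difference between the family changes of VSP2 was tested itself in letters A and B. C24/Ler minus Col/Ler was -1.14 ± 0.23 on the log2 scale (adjusted p = 0.0787), and 0 of the 10 genes passed, against 0.41% of genes (1334 genes and VSP2 alone of the 10 at an unadjusted p under 0.05). With the letter as replicate block it was -1.18 (adjusted p = 0.00821), and DESeq2 gave -1.14 (adjusted p = 0.00044), so the call depends on the model. Leaving out C24xLer A gave -1.35 (adjusted p = 0.025), and the other fits without 1 library reached up to an adjusted p of 0.272, without LerxC24 B. C24/Ler minus C24/Col was -0.50 ± 0.23 for VSP2 (adjusted p = 0.93), while JAZ1 had -1.13 ± 0.685 and MYC2 -0.72 ± 0.60 (adjusted p = 1 for both), with 0 of 10 called against 0.39% of genes (VSP2 alone of the 10 and 1595 genes unadjusted; DESeq2 called 224 genes, none of the 10). C24/Col minus Col/Ler was -0.64 ± 0.23 (adjusted p = 0.656), with 0 of 10 called against 0.423% (VSP2 alone and 1471 genes unadjusted; DESeq2 called 263 genes, none of the 10).

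The hybrids were also set against each parent, a comparison added after the data were seen. VSP2 was lower in C24/Col hybrids than in Col (log2 change -0.896 ± 0.22, adjusted p = 0.0482), with all 4 hybrid libraries below both Col libraries. Such groups without overlap, in either direction, were found for 1 of the 10 genes and for 25.5% of 30106 genes. VSP2 was 1 of 10 genes called there, against 3.63% of genes. The replicate block (-0.89, adjusted p = 0.00608) and DESeq2 (-0.89, adjusted p = 0.00546) kept the call. It was lost with no low-count filter (adjusted p = 0.0508), with all 34 libraries in the fit (-0.898, adjusted p = 1) and in 13 of 18 fits without 1 library, among them that without Col A (-0.67, adjusted p = 0.399). The leaf marker LHCB2.1 (-0.49 ± 0.11) and the flower marker AP1 (-1.65 ± 0.20) were lower than in Col as well, and their part in the VSP2 value was not tested. The synthesis gene AOC1 was higher (1.09 ± 0.23).

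In the other 5 comparisons with a parent 0 of 10 genes passed: C24/Ler hybrids against C24 (5.24% of genes called; JAZ3 of the 10 at an unadjusted p under 0.05) and against Ler (3.70%; none of the 10), C24/Col hybrids against C24 (7.11%; JAZ6) and Col/Ler hybrids against Col (2.22%; none) and against Ler (8.42%; VSP2). DESeq2 called VSP2 higher in Col/Ler hybrids than in Ler (0.75, adjusted p = 0.0186) and none of the 10 in the other 4. The replicate block also called VSP2 higher in Col/Ler hybrids than in Ler (0.79, adjusted p = 0.0108; 0.76 ± 0.235 and adjusted p = 0.0732 without it). With the block VSP2 was lower in C24/Ler hybrids than in C24 (-1.23, adjusted p = 0.0331, against -1.04 ± 1.01 and adjusted p = 0.687 without it). That block fit also left out LerxC24 U1 and U2, which had the lowest VSP2 levels of the 28 libraries, 5.27 and 2.94 CPM. The part of the letter and that of the missing libraries cannot be told apart. JAZ8 was lower in C24/Ler hybrids than in C24 within letters A and B alone (-1.92, adjusted p = 0.0217), against -0.64 ± 0.54 over all letters. Outputs and synthesis genes called in C24/Col hybrids against C24 were all lower in the hybrids: 3 of 15 outputs, PR4 (-1.24 ± 0.27), CORI3 (-1.04 ± 0.25) and JAL35 (-0.99 ± 0.12), and 2 of 14 synthesis genes, LOX2 (-1.25 ± 0.31) and AOC1 (-0.96 ± 0.21). The leaf markers LHCB2.1 (0.72 ± 0.11) and LHCB3 (0.33 ± 0.08) were higher in these hybrids, and their part was not tested. In Col/Ler hybrids MYC3 was higher than in Col (0.68 ± 0.08) and lower than in Ler (-0.39 ± 0.08). The outputs PDF1.2a (-2.45 ± 0.65), ANAC055 (-1.07 ± 0.23) and CORI3 (-1.0 ± 0.25) were lower in Col/Ler hybrids than in Ler. In C24/Ler hybrids CML38 was higher than in C24 (1.77 ± 0.48), and the output gene NATA1 was lower than in Ler (-2.05 ± 0.51). Flower markers were called in 3 of these 5 comparisons and the root marker EXPA7 in 3 of them.

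All hybrids against all inbreds, which averages the 3 family changes within letters A and B, gave -0.445 ± 0.13 for VSP2 (adjusted p = 0.0998). None of the 10 passed, against 2.44% of genes (5314 genes and VSP2 alone of the 10 at an unadjusted p under 0.05). With the replicate block the adjusted p was 0.0134 and with DESeq2 0.0263, and it was 0.365 without Ler A. Of the 15 jasmonate-responsive output genes, JAL35, a jacalin-like lectin gene, was the only one called here (-0.30 ± 0.07, adjusted p = 0.0491). JAL35 was also the only one called against the mid-parent in C24/Col hybrids (-0.49 ± 0.10, adjusted p = 0.0403). Of the 14 synthesis genes, the 10 catabolism genes, the 5 other JAZ genes, the 6 other jasmonate bHLH genes, the 4 receptor and corepressor genes and the 9 wound and touch genes none was called in all hybrids against inbreds or in any of the 3 mid-parent comparisons without the letter in the fit.

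With the letter as replicate block more list genes passed, as did more genes in all. In all hybrids against inbreds, where the block called 13.3% of genes, 4 of 15 outputs were lower in hybrids, CLH1 (-0.45 ± 0.10), CORI3 (-0.41 ± 0.06), JMT (-0.41 ± 0.07) and JAL35 (-0.30 ± 0.05). Of 14 synthesis genes 3 were lower, LOX2 (-0.70 ± 0.10), ACX1 (-0.24 ± 0.04) and AOC4 (-0.16 ± 0.03). Of 6 bHLH genes AT5G46830 (-0.64 ± 0.13) and MYC4 (-0.22 ± 0.06) were lower and JAM2 was higher (0.21 ± 0.03). No gene of the other 4 lists was called, and of the markers LHCB3 (0.15 ± 0.04) and EXPA7 (0.26 ± 0.07) were higher and AP1 (-0.50 ± 0.13) lower. The block fit of C24, Ler and their hybrids also left out LerxC24 U1 and U2, whose letters are not known. Against the mid-parent the block called 2 outputs and 1 synthesis gene lower in C24/Ler hybrids (2.77% of genes called), CORI3 (-0.86 ± 0.13), JMT (-0.66 ± 0.14) and LOX2 (-0.98 ± 0.13). In C24/Col hybrids (7.44%) it called 4 outputs and 2 synthesis genes lower, LOX2 with the largest change of them (-0.84 ± 0.14), and 1 bHLH gene higher and 1 lower. In Col/Ler hybrids (4.22%) it called ACX1 lower (-0.27 ± 0.06) and JAM2 higher (0.25 ± 0.05). None of the 10 genes was called in these 3 comparisons with the block.

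The accessions were compared next. C24 stood above Col in 8 of the 10 genes, with a median log2 change of 0.80 where the median of all genes was 0.005, but 0 of 10 passed, against 13.3% of 29777 genes (7304 genes and 4 of the 10 at an unadjusted p under 0.05). Of the 2 C24 libraries in this fit, C24 A is 1 of the 3 libraries picked above for their high levels. C24 B lay between the Col libraries for JAZ1 (12.6 CPM, against 16.2 and 11.2 CPM) and MYC2 (41.4 CPM, against 58.7 and 29.1 CPM). For JAZ5 it lay below both (7.2 CPM, against 8.03 and 7.60 CPM). C24 B lay above both Col libraries for JAZ2, JAZ6, JAZ8, JAZ9 and JAZ10. JAZ2 had 58.2 and 53.0 CPM in C24 A and B, against 21.5 and 40.2 CPM in Col A and B (0.85 ± 0.26, adjusted p = 0.0546). JAZ10 had 13.5 and 10.8 CPM in C24, against 4.22 and 6.59 CPM in Col (1.17 ± 0.41, adjusted p = 0.0883). JAZ8 had 2.09 and 1.099 CPM in C24, against 0.284 and 0.610 CPM in Col (1.82 ± 0.64, adjusted p = 0.0887). VSP2 lay the other way, with 308 and 346 CPM in C24, against 656 and 490 CPM in Col (-0.81 ± 0.26, adjusted p = 0.0687). In these 4, and in JAZ6 and JAZ9, the groups of 2 and 2 libraries do not overlap, which is 6 of 10 genes, against 46.7% of 30106 genes. DESeq2 called the first 4 (adjusted p of 0.0173 for JAZ2, 0.0272 for JAZ10, 0.0352 for JAZ8 and 0.0256 for VSP2). The share of all genes that DESeq2 called in this comparison is not given here, so these 4 of 10 cannot be set against it. The replicate block called VSP2 (-0.78, adjusted p = 0.0166), 1 of the 10, against 21.7% of all genes. The edgeR fit called JAZ2, JAZ8 and JAZ10 without ColxC24 A or without ColxC24 B (adjusted p of 0.0251 to 0.027), JAZ2 (1.37, adjusted p = 0.00359) and JAZ6 (1.65, adjusted p = 0.00807; 0.78 ± 0.38 with all 18 libraries) without Col B, and VSP2 without C24xLer A, C24xLer B or Ler B (lowest adjusted p = 0.0371). Without Col A the values were smaller, 0.47 for JAZ2 (adjusted p = 0.268), 0.235 for JAZ6 (adjusted p = 0.704) and -0.58 for VSP2 (adjusted p = 0.304).

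Of 14 jasmonate synthesis genes 5 were called between the same accessions, where 13.3% of all genes were called, and all 5 were higher in C24 than in Col: AOC1 (2.04 ± 0.26, adjusted p = 0.000207), LOX3 (1.87 ± 0.54, 0.0437), OPR3 (1.84 ± 0.46, 0.0206), AOS (1.24 ± 0.36, 0.0397) and AOC2 (1.11 ± 0.25, 0.01), as log2 changes ± SE with adjusted p. AOC1 and AOC2 encode allene oxide cyclases and are near copies that could share reads, and AOS encodes the allene oxide synthase of the step before. Their list had a median log2 change of 0.99. Among 15 outputs 4 were higher in C24: the ethylene and jasmonate factor ORA59 (1.74 ± 0.43), CORI3 (1.49 ± 0.31), PR4 (1.12 ± 0.33) and JAL35 (0.99 ± 0.15). Of 10 catabolism genes 3 were higher in C24, the amidohydrolase gene IAR3 (0.74 ± 0.17), the hydroxylase gene CYP94B1 (0.69 ± 0.15) and AT3G11180 (0.34 ± 0.10). Of 5 other JAZ genes JAZ4 was lower (-0.63 ± 0.12, adjusted p = 0.00379), and no gene of the receptor, bHLH or wound lists was called. Of 5 leaf markers LHCB2.1 (-1.22 ± 0.13) and LHCB3 (-0.35 ± 0.10) were lower in C24, and of 4 flower markers AP1 (-1.62 ± 0.25). Their part in the jasmonate genes was not tested.

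In Col against Ler 1 of 10 genes was called, against 13.9% of genes. VSP2 had 656 and 490 CPM in Col A and B, against 296 and 195 CPM in Ler A and B (1.22 ± 0.27, adjusted p = 0.00971). The groups do not overlap, which held for 2 of the 10 genes (VSP2 and JAZ1) and for 50.4% of 30106 genes. The call was lost without Col A (0.99, adjusted p = 0.0678) and without Ler B (0.955, adjusted p = 0.0766). With all 34 libraries in the fit VSP2 changed by 1.80 with an adjusted p of 0.62. MYC3, a paralogue of MYC2, was lower in Col (-1.07 ± 0.09, adjusted p = 7.6e-06), as were AOC1 (-1.48 ± 0.26) and CORI3 (-1.86 ± 0.31), and JAZ4 was higher (0.47 ± 0.12). No other gene of the jasmonate and wound lists was called. The leaf marker LHCB2.1 (0.60 ± 0.13), the flower marker AP1 (1.14 ± 0.24) and the root marker EXPA7 (1.70 ± 0.13) were also higher in Col, and the flower marker AP3 was lower (-1.77 ± 0.32). Their part in the VSP2 value was not tested.

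In C24 against Ler, fitted on the 18 libraries of C24, Ler and their hybrids, 1 of 10 genes was called, against 14.3% of 29528 genes. JAZ3 had a lowest, median and highest level of 10.1, 12.8 and 24.01 CPM in the 6 C24 libraries, against 19.3, 24.2, 29.5 and 31.7 CPM in the 4 Ler libraries (-0.84 ± 0.27, adjusted p = 0.0426). The groups overlap through C24 B with 24.01 CPM. The change was -0.235 (adjusted p = 0.574) within letters A and B and -1.28 (adjusted p = 0.00234) within the other letters, and with the letter set as a term it was -0.84 (adjusted p = 0.00496). The call was lost without C24 D, E, F or G, or without Ler B, F or G, and the highest adjusted p was 0.128, without Ler G. Over all 18 fits without 1 library the change was between -0.74 and -1.04. Within letters A and B, JAZ2 (0.68, adjusted p = 0.0117) and JAZ8 (2.60, adjusted p = 0.00755) were called higher in C24, and within the other letters JAZ9 was called lower (-1.505, adjusted p = 0.0184). From the lists MYC3 (-0.69 ± 0.17), PDF1.2a (-2.41 ± 0.73), THI2.1 (-1.18 ± 0.34), AOC4 (-0.40 ± 0.12) and CML38 (-1.74 ± 0.54) were lower in C24, and no gene of the jasmonate and wound lists was higher. The flower markers AP1, AP3 and PI were lower in C24 as well, the root marker EXPA7 was higher (1.33 ± 0.18), and no leaf marker was called.

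Levels also differed between sets of letters within genotypes. In C24, Ler and their hybrids, libraries lettered other than A and B were set against A and B with the genotype as a term, and 4 of 10 genes were called, all lower, against 45.8% of genes called in either direction. JAZ9 had a lowest, median and highest level of 17.1, 28.4 and 64.1 CPM in the 10 other libraries, against 75.4, 93.2 and 135 CPM in the 8 libraries lettered A and B (-1.53 ± 0.24, adjusted p = 0.000118). JAZ6 had 35.9, 65.9 and 116 CPM, against 120, 164 and 199 CPM (-1.23 ± 0.19, adjusted p = 7.67e-05). The groups of JAZ6 and of JAZ9 do not overlap, which held for 2 of the 10 genes and for 7.97% of 30106 genes. JAZ3 had 10.1, 15.7 and 31.7 CPM, against 17.6, 26.0 and 30.3 CPM (-0.56 ± 0.15, adjusted p = 0.00526), with overlap.

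VSP2 had 2.94, 12.4 and 378 CPM in the 10 other libraries, against 81.1, 204 and 346 CPM in letters A and B (-2.71 ± 0.89, adjusted p = 0.0204). C24 D with 378 CPM, C24xLer D with 124 CPM and C24 E with 83.04 CPM lay within or above the A and B range, and the remaining 7 had at most 20.9 CPM. Between its extremes, 656 CPM in Col A and 2.94 CPM in LerxC24 U2, VSP2 spanned 223-fold. Without LerxC24 U1 the count of called genes was 7 of 10, JAZ2 among them (-0.315, adjusted p = 0.0221). The share of all genes called without LerxC24 U1 is not given here, and with LerxC24 U1 in the fit it was 45.8%. All 5 leaf markers were called lower in the other letters too, with a median log2 change of -1.83, and their summed levels do not overlap between the sets. Their part in the VSP2, JAZ6 and JAZ9 values was not tested.

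**Figure D5:**
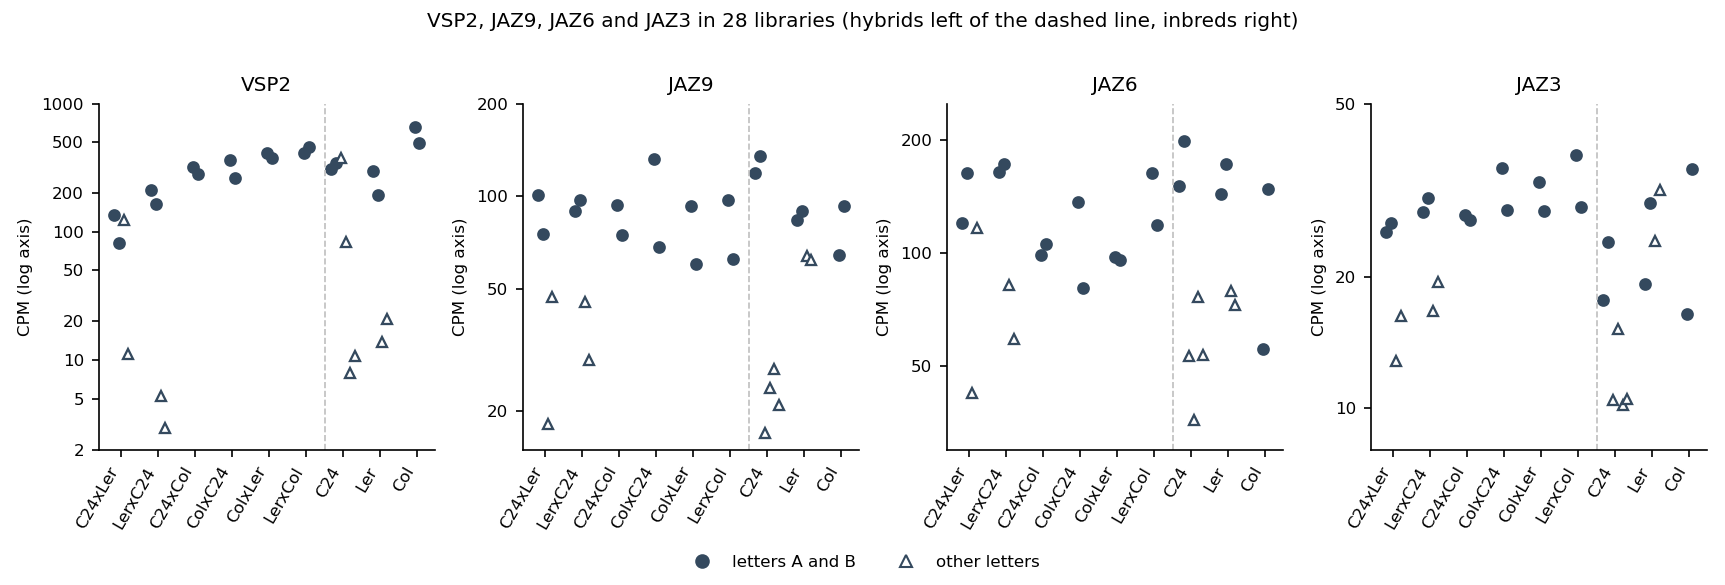
CPM (log axis) of VSP2, JAZ9, JAZ6 and JAZ3 by genotype; filled circles are letters A and B and open triangles other letters, which exist in C24, Ler and their hybrids only. For JAZ9 all triangles lie at or below 64.1 CPM and all circles of the same 4 genotypes at or above 75.4 CPM.

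Of the 14 jasmonate synthesis genes 8 were called between the sets, where 45.8% of all genes were called. In the other letters 7 were lower, led by LOX2 (-1.56 ± 0.27), AOC1 (-1.51 ± 0.17), AOS (-1.48 ± 0.14), AOC2 (-1.11 ± 0.15) and OPR3 (-0.84 ± 0.27), and DAD1 was higher (0.27 ± 0.09). The 15 outputs split, 4 higher and 4 lower. The defensin genes PDF1.2b (2.03 ± 0.42) and PDF1.2a (1.75 ± 0.42), near copies that could share reads, and PR4 (1.52 ± 0.28), genes of the joint ethylene and jasmonate branch, were higher. CORI3 (-1.60 ± 0.24) and the methyltransferase gene JMT (-1.60 ± 0.28) were lower. Of the bHLH list AT5G46830, named NIG1 in RefSeq, was lower (-2.37 ± 0.45), as was MYC3 (-0.29 ± 0.10), and JAM2 was higher (0.31 ± 0.07). Of 4 receptor and corepressor genes NINJA (0.41 ± 0.08) and TPL (0.40 ± 0.09) were higher and COI1 (-0.28 ± 0.11) lower. Of 10 catabolism genes 2 were higher, CYP94B3 (1.23 ± 0.44) and CYP94B1 (0.39 ± 0.12), and 3 were lower, AT5G05600 (-1.11 ± 0.28), AT3G11180 (-0.28 ± 0.09) and CYP94C1 (-0.18 ± 0.07). Of 9 wound and touch genes TCH4 (-2.53 ± 0.48) and TCH2 (-1.31 ± 0.28) were lower. MYC2 itself had 0.11 ± 0.33 (adjusted p = 0.804).

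Letter A was also set against letter B over the 9 genotypes, and 3 of 10 genes were called, all higher in A, against 29.8% of genes called in either direction. MYC2 was higher in A by 0.89 ± 0.23 (adjusted p = 0.017), in 9 of 9 genotypes, and without ColxC24 A, the library with its highest level, by 0.70 (adjusted p = 0.00181). JAZ5 was higher by 0.71 ± 0.23 (adjusted p = 0.0469) in 9 of 9 genotypes, and VSP2 by 0.285 ± 0.09 (adjusted p = 0.0411) in 7 of 9, all but C24 and LerxCol. JAZ5 passed in 4 of 18 fits without 1 library, those without a C24xCol or a ColxC24 library, and VSP2 in 4 of 18, those without a C24 or a LerxCol library. MYC2 passed in 18 of 18. JAZ1 had 0.85 ± 0.34 (adjusted p = 0.093; 0.0307 with DESeq2). Of 6 bHLH genes 3 were higher in A, AT5G46830 (1.61 ± 0.13, adjusted p = 4.31e-06), JAM1 (0.55 ± 0.11) and MYC4 (0.32 ± 0.06), and 2 lower, JAM2 (-0.24 ± 0.03) and JAM3 (-0.10 ± 0.03). AT5G46830 had 11.4 and 2.81 CPM in Col A and B. The receptor gene COI1 was higher in A (0.50 ± 0.04, adjusted p = 1.38e-06), as was JAZ12 (0.21 ± 0.04), the only one called of 5 other JAZ genes, and TPL (-0.21 ± 0.03) and the mediator gene MED25 (-0.16 ± 0.04) were lower. Of 15 outputs 6 were higher in A and 1 lower, with ERF1 (1.39 ± 0.37), ANAC019 (0.92 ± 0.14), CLH1 (0.73 ± 0.10), NATA1 (0.66 ± 0.19) and JMT (0.50 ± 0.07) the largest changes. Of 14 synthesis genes 7 were higher in A, led by LOX4 (0.96 ± 0.12), LOX3 (0.64 ± 0.18), OPCL1 (0.60 ± 0.13) and LOX2 (0.49 ± 0.09), and LOX6 was lower (-0.47 ± 0.06). No catabolism gene was called, and of 9 wound and touch genes only the calmodulin-like gene TCH2 was called (1.01 ± 0.21). Of 5 leaf markers RCA (0.19 ± 0.05) and RBCS1A (0.16 ± 0.04) were higher in A, as was the root marker EXPA18 (0.55 ± 0.15), and their part in these values was not tested.

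The genes most like the JAZ repressors across the 28 libraries were found by Pearson's r with the mean standardised log2 level of the 8 JAZ genes, among genes of at least 5 CPM on average. They were OPR3 (r = 0.84), AT4G20860 (0.83), PGIP1 (0.82), AT5G06865 (0.82) and AT1G66760 (0.80). AT5G06865 neighbours PGIP1, so these 2 may share reads. The genes most like VSP2 were ADF6 (0.95), SCPL9 (0.94), AT4G11610 (0.94), AT1G15900 (0.94) and BETA-VPE (0.93), none of which was among the first 5 for the JAZ genes. These are descriptions over libraries that share genotypes and letters, with no test.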

How the data were processed

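The deposited table holds the authors' raw counts for 34 libraries, 1 whole number per locus and library, with no normalization. The submitters' processing notes name TAIR10 and FastQC. No source used here gives the aligner, the counter or the use of strand, so reads of overlapping genes and near copies could be assigned wrongly. Columns were mapped to samples by name. For 2 LerxC24 columns only the genotype could be read (U1 and U2), and 0 columns were left unmapped. The chi-square per gene was at least 23.9 in each of 67 pairs of replicates, so none agreed within counting noise.

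Counts were tested with edgeR 4.0.16 (R 4.3.3; limma 3.58.1): TMM scaling, filterByExpr by genotype, robust quasi-likelihood fits, and p-values adjusted after Benjamini-Hochberg over every gene tested, with calls under 0.05. The fit for C24, Ler and the hybrids between them used 18 libraries (29528 genes), all others the 18 libraries lettered A and B of the 9 genotypes (29777 genes), which share 1 estimate of the spread. The letter C libraries, Ler D and Ler E were left out of these fits. Changes are log2 ± SE. Comparisons that share a genotype share its libraries. DESeq2 1.42.0, DESeq2 size factors, no low-count filter, all libraries kept, letter sets, a replicate block and leaving out each library were the alternatives. In the fit for C24, Ler and their hybrids the replicate block also left out LerxC24 U1 and U2, so it changed the libraries as well as the model.

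The labels do not say that a letter marks a shared batch. Libraries of the same letter deviated together, however. Over 36 pairs of genotypes, the correlation of the deviations of A and B from their genotype means was 0.2 to 0.54 (median 0.38, 30106 genes). Letters A and B thus pair the samples, but the main fits that compare genotypes did not use this pairing and had the genotype as their only term. The letter entered in the comparisons of letters and, among the alternatives, as the replicate block and the letter set term.

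Gene names and coordinates come from RefSeq TAIR10.1, where 32565 of the 33321 loci were matched, and 82 of the 88 genes of the lists under the symbols used here. The naming rule covers the 10 genes in every comparison and, from each list, the called genes, at most 5 by size of change; where a comparison has no call, its genes are given mainly as counts. The 6 comparisons of hybrids with a single parent, and their alternatives, were added after seeing the data. The 10 genes and all lists were chosen with earlier results of these data known. On simulated counts with known changes, the C24/Ler mid-parent fit recovered 87% of genes changed 2-fold and 92% of those changed 4-fold, and the C24/Col fit 79% and 93%. The changed genes were drawn at random and the simulated counts held no difference between letters. These shares do not hold for most of the 10 genes, whose spread was wider: that of JAZ1 exceeded 96.5% of genes and that of MYC2 95.2%. They give no measure of the changes that could be missed in these genes. Depth limits precision for JAZ8 only, with 13 counts in its lowest library. Intervals and SEs cover the spread between these pools.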

Additional observations from a re-analysis of the deposited data

Results flagged for a closer look

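Of 40 groups tested (each of the 10 genes in C24, Ler, C24xLer and LerxC24, the genotypes with at least 4 libraries), 5 held a library far from the others of its genotype. The rule flags about 1 group in 20 by chance where values are spread normally and groups are independent. Here it was run on CPM without logs, and the groups of a genotype share libraries. The count of 5 therefore cannot be set against that rate. JAZ1 had 44.52 CPM in C24 A, against 8.234 to 14.42 CPM in the other 5 C24 libraries. JAZ5 had 20.37 CPM in C24 A, against 5.205 to 7.245 CPM, and MYC2 had 105 CPM in C24 A, against 20.51 to 42.23 CPM in the same 5. JAZ8 had 2.749 CPM in LerxC24 U1, against 0.2785 to 0.4673 CPM in the other 3 LerxC24 libraries, and MYC2 had 115 CPM there, against 36.68 to 44.96 CPM. All 5 values thus belong to 2 libraries, C24 A and LerxC24 U1. ColxC24 has only 2 libraries and could not be checked in this way.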

How the results depend on the processing

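No value of the 10 genes that passed the threshold changed its direction under any alternative run. The count of the 10 genes called changed as follows. In C24 against Ler (1) it was 0 with all libraries kept, and 2 each in letters A and B alone and in the other letters alone. In C24 against Col (0) DESeq2 called 4 and the replicate block 1. In Col against Ler (1) it was 0 with all libraries kept. In all hybrids against all inbreds (0), and in C24/Ler minus Col/Ler (0), DESeq2 and the replicate block each called 1. In C24/Col hybrids against Col (1) it was 0 with all libraries kept and with no low-count filter. In C24/Ler hybrids against C24 (0) it was 1 in letters A and B alone and 1 with the replicate block, and in Col/Ler hybrids against Ler (0) it was 1 with DESeq2 and 1 with the block. In letter A against B (3) it was 4 with DESeq2, JAZ1 added, and 2 with no low-count filter. The replicate block changed no other call of the 10 genes. Leaving out 1 library gave 0 to 1 calls in C24 against Ler, 0 to 3 in C24 against Col, 0 to 2 in Col against Ler, 0 to 1 in C24xCol against ColxC24, 0 to 1 in all hybrids against inbreds, 0 to 1 in C24/Ler minus Col/Ler, 0 to 1 in C24/Ler hybrids against C24, C24/Col hybrids against Col and Col/Ler hybrids against Ler, 0 to 2 in C24/Col hybrids against C24, 1 to 2 in letter A against B and 4 to 7 in other letters against A and B. JAZ5 in letter A against B had an adjusted p of 0.0539 with no low-count filter. The cause of these changes was not tested.

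Over all genes, the replicate block called 9609, 6460 and 7020 in C24 against Ler, C24 against Col and Col against Ler (4220, 3949 and 4143 without it), and keeping all libraries 1472, 1158 and 683. For the mid-parent comparisons of C24/Ler, C24/Col and Col/Ler the counts were 826, 2214 and 1258 with the block, 446, 786 and 634 with DESeq2 and 71, 35 and 20 with all libraries kept (227, 369 and 334 as reported). For all hybrids against inbreds they were 3952, 1697 and 68 (727 as reported), and for the family differences 204 to 269 with the block, 212 to 263 with DESeq2 and 9 to 16 with all libraries. C24xCol against ColxC24 called 5 with the block. In C24/Ler against the mid-parent the letter set as a term called 375, letters A and B alone 137. With 2 libraries per genotype in the Col families, 1 library can decide a value, and SDs of a genotype are rough.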

Other observations

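The 6 libraries left out of the fits, except where all libraries were kept, had these levels of the 10 genes. VSP2 had 534 CPM in Ler D, above all of the 28 libraries but Col A, and 26.5 CPM in Ler E. In the 4 libraries lettered C it had 52.9 to 80.1 CPM. JAZ8 had no count in C24xLer C and LerxC24 C, and 0.217 CPM in C24 C and 0.114 CPM in Ler C. JAZ1 had 13.4 to 21.2 CPM and MYC2 38.7 to 58.1 CPM over the 6, all within the range of the 28 libraries. JAZ9 had 26.0 CPM in Ler D and 49.2 CPM in Ler E, against 61.8 to 74.1 CPM in letter C. VSP1, the neighbour of VSP2, had its highest levels over the 28 libraries in Ler A (87.3 CPM) and C24 D (84.9 CPM) and its lowest in LerxC24 U2 (1.63 CPM).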
